A study of Mus musculus with 12 samples.

Results

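The 38 genes described here carry out glycolysis, move and make lactate, sense oxygen, or are standard targets of the hypoxia-inducible factors (HIFs) in mouse 3T3 cells, an immortalised fibroblast line. They were chosen by name, with earlier results of these data known, so their contrasts with all genes are a description. Every array probe whose annotated gene symbol was one of these names was taken. That gave 81 probes for 35 of the 38 genes, among 16969 genes with a probe and 14523 with enough values to test. No probe carried the symbol Gpi1, Eno1 or Ankrd37, so these 3 genes were not analysed here. Of the 35 genes, 22 had 1 probe and 13 had more, up to 30 probes for Gapdh.

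The samples were control 3T3 cells and 3T3 cells given Shld1 at 10 nM, 100 nM or 1 µM, with 3 arrays in each of the 4 groups and 12 arrays in all. Shld1 is a small cell-permeable molecule that stabilises proteins fused to an FKBP12-derived destabilizing domain. The sources used here do not say whether these cells carried such a fusion, how long they were treated or what the control cells received. Each array set a 3T3 sample labelled with Cy5 against one commercial mouse reference RNA labelled with Cy3, with no array in the opposite dye order. The values are log2 ratios of 3T3 sample over reference RNA, with 0 set at the median of each array, so a value of -1 means that the gene was at 1/2 of the reference relative to the median probe. The log base was taken as 2, and the direction rests on the dyes and on marker genes of fibroblasts and leukocytes. Were the ratios the inverse, every sign given here would turn.

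Glycolysis splits glucose into pyruvate in the cytosol, and pyruvate that is not sent to the mitochondria can be reduced to lactate and exported. When oxygen is scarce, the prolyl hydroxylases that mark HIF-1α and HIF-2α for destruction by the VHL ubiquitin ligase slow down, and the stabilised factors pair with ARNT and raise transcription of glucose transporters, most glycolytic enzymes, lactate export, angiogenic factors and the hydroxylases themselves. HIF-1α is controlled mainly at the level of its protein, so the messenger RNA of Hif1a and the activity of the factor are separate quantities. In a bulk sample, fewer cells of a type and less RNA per cell cannot be told apart.

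HIF dimers bind the core sequences ACGTG and GCGTG, and the promoters of 4 genes are shown because they bracket the ratios described below: 3 of the 5 genes furthest below the reference RNA (Adm, Slc16a3 and Egln3) and the gene furthest above it (Hif1a, the factor's own subunit). Each sequence holds the 250 bases before the annotated start, from RefSeq on GRCm38.p6, read 5′ to 3′ on the gene's strand. Capitals mark ACGTG or GCGTG on the strand shown and their reverse complements CACGT and CACGC, and CACGTG, which reads the same on both strands, counts once for each. The regions are chr7:110627407-110627656 on the plus strand for Adm (Entrez gene 11535), chr11:120948817-120949066 on the plus strand for Slc16a3 (80879), chr12:54203875-54204124 on the minus strand for Egln3 (112407) and chr12:73907617-73907866 on the plus strand for Hif1a (15251).
Adm: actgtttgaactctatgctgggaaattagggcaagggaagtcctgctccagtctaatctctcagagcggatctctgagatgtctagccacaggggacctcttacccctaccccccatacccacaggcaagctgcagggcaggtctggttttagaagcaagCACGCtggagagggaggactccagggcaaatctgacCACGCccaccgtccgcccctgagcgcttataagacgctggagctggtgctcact
Slc16a3: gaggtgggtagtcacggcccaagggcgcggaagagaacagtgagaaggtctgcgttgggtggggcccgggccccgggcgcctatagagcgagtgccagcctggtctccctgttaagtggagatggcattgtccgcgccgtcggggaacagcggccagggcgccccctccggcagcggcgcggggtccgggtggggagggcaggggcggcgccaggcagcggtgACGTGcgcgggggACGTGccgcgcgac
Egln3: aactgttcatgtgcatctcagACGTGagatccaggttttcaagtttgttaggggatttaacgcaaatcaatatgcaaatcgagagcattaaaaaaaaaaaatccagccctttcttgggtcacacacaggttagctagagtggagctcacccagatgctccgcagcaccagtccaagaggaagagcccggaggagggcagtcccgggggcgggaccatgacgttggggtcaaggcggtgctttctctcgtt
Hif1a: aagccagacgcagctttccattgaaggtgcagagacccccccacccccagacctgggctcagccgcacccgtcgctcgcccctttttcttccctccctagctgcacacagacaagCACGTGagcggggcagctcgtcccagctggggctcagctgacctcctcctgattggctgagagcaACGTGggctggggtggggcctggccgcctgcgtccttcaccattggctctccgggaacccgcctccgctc

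The windows of Adm and Slc16a3 each held 2 matches, that of Egln3 held 1 and that of Hif1a held 3. Of the 38 genes, 35 were in the promoter table, and 31 of them (88.6%) had a match in at least 1 window, beside 41.5% of all 27025 genes in the table. Counted by window, 79.6% of the 49 windows of these genes held a match, beside 38.6% of 32851 windows. The comparison was not matched for base composition, and a match is only a run of letters. Among the genes tested on the arrays, the 29 with a match had a median log2 ratio of -0.92. The 3 without one (Eno2, Tpi1 and Car12) had a median of -1.37. With so few genes lacking a match, a link between matches and ratios was not tested.

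Most of these genes were measured lower in 3T3 cells than in the reference RNA. The median log2 ratio over the 35 genes was -0.97 on the mean of all 12 arrays, against 0.03 over all 14523 genes. On that mean, 30 of the 35 genes were called lower and 4 were called higher (limma, adjusted p under 0.05), where 34.4% of all genes tested were called lower and 38.6% higher, 73% in either direction. In control cells alone, 27 were called lower and 3 higher, where 19.6% of all genes were called lower and 26.5% higher, 46.1% in either direction. Without the centring of each array, the median of all genes moved to -0.12, the share of higher calls among all calls was 39.3% on the mean of 12 arrays (52.9% with centring) and 40.5% in control cells (57.5% with centring), and the median of the 35 genes was -1.12. The test of a ratio against 0 leaves out the spread of the reference RNA itself, and with 1 dye order a dye effect and a difference between the RNAs cannot be told apart.

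The signs held array by array. Of the 35 genes, 28 (80.0%) had a value below 0 on each of the 12 arrays, beside 16.8% of all genes tested, and 4 (11.4%) had a value above 0 on each of them, beside 22.9%. A mean under -1 was reached by 16 genes (45.7%, beside 5.32% of all genes) and a mean over 1 by Hif1a alone (2.86%, beside 6.53%). By role, the 21 genes of glycolysis and lactate had a median of -0.65, with 18 called lower and 3 higher, and the 14 genes of oxygen sensing and HIF targets had a median of -1.25, with 12 called lower and 1 higher.

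**Figure D1:**
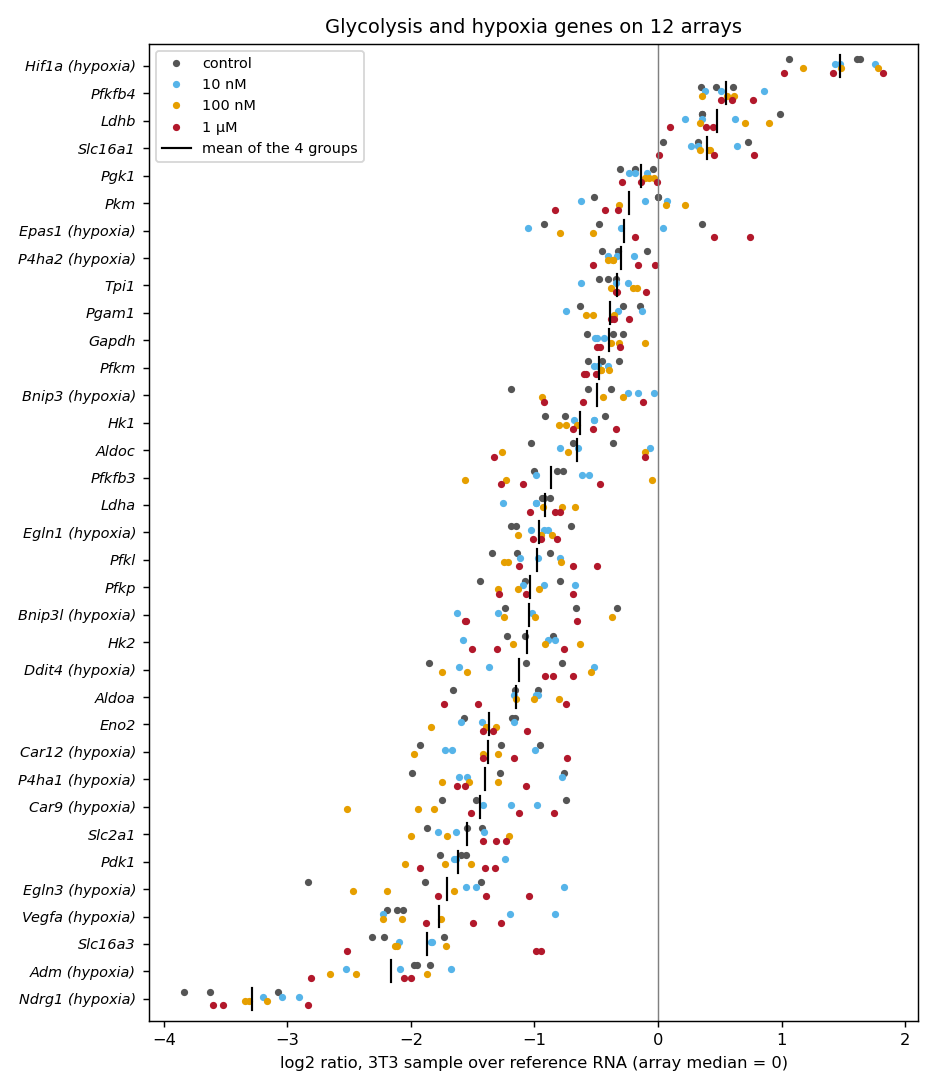
Log2 ratio of 3T3 sample over reference RNA (horizontal axis, array median at 0) for the 35 measured genes, 1 point per array coloured by Shld1 dose and a bar at the mean of the 4 groups. Hif1a lies above 1 on all 12 arrays, Ndrg1 lies at or below -2.83 on all of them, and the points of the 4 groups are mixed within most genes.

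At the entry to the pathway, Slc2a1, which encodes the basal glucose transporter GLUT1, had a lowest, median and highest value of -1.999, -1.48 and -1.21 over the 12 arrays (mean -1.54, SE 0.073). The hexokinases, which trap glucose by phosphorylating it, were called lower too, with a mean of -1.06 (SE 0.088) for Hk2, the inducible form, and -0.63 (SE 0.056) for Hk1, the form of most tissues. All 3 genes of this step were below the reference on all 12 arrays.

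In the preparatory steps, all 6 genes measured were called lower. The liver-type phosphofructokinase gene Pfkl had a mean of -0.98 (SE 0.072) and the muscle-type gene Pfkm one of -0.48 (SE 0.044). The platelet-type gene Pfkp had a mean of -1.04, but its 5 probes ran from -2.74 to 0.45, so its value depends on the probe. The aldolase genes Aldoa, which serves most tissues, and Aldoc, best known from brain, had means of -1.15 (SE 0.088) and -0.65 (SE 0.14), and Tpi1, which interconverts the triose phosphates, had -0.33 (SE 0.052).

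The enzymes that set fructose 2,6-bisphosphate, the activator of phosphofructokinase, went opposite ways. Pfkfb3, whose enzyme mainly makes the activator, was lower, with a lowest, median and highest value of -1.56, -0.90 and -0.05. These values are from its 1 probe with a value on all 12 arrays. The other Pfkfb3 probe, with 11 values, averaged -0.25 and reached 0.31 on 1 µM replicate 1. Pfkfb4, whose enzyme also breaks the activator down, was above 0 on all 12 arrays, with 0.35, 0.47 and 0.61 in control cells, 0.51, 0.38 and 0.85 at 10 nM, 0.36, 0.55 and 0.62 at 100 nM and 0.60, 0.77 and 0.51 at 1 µM (mean 0.55, SE 0.057, adjusted p = 3.44e-06). Its 2 probes stood at 0.09 and 1.01 on average, so most of the Pfkfb4 difference came from 1 of them.

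Apart from Eno2, the genes of the payoff phase, in which the cell recovers ATP, lay near the reference. Gapdh had a mean of -0.39 (SE 0.049) over 30 probes, 25 of which averaged below 0 and 5 above it, in a range of -0.91 to 0.29. Gapdh has many near-identical pseudogene copies in the mouse genome, with which its probes may share sequence. The mean was -0.39 (SE 0.065) for Pgam1, phosphoglycerate mutase, and -0.14 (SE 0.047) for Pgk1, phosphoglycerate kinase, whose 2 probes disagreed in sign at -0.55 and 0.27. Pkm, pyruvate kinase, averaged -0.23 (SE 0.083) and was below 0 on 9 arrays and above it on 3. Eno2, the enolase named for neurons, had values between -1.84 and -1.06 and a mean of -1.37 (SE 0.069).

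Beyond pyruvate, related genes lay on opposite sides of the reference, with Slc16a3 and Ldha below it and Slc16a1 and Ldhb above it. Slc16a3 encodes MCT4, the lactate exporter of strongly glycolytic cells. Its log2 ratios were -2.31, -2.22 and -1.73 in control cells, -1.83, -2.10 and -1.84 at 10 nM, -2.11, -1.72 and -2.13 at 100 nM and -0.95, -2.52 and -0.99 at 1 µM (mean of all 12 arrays -1.87, SE 0.12, a 3.66-fold lower ratio, adjusted p = 9.85e-08). All 12 values were below 0, and the 1 µM group held both the lowest and the highest of them.

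Slc16a1 encodes MCT1, the lactate carrier of most tissues. Its values were 0.04, 0.73 and 0.32 in control cells, 0.32, 0.27 and 0.64 at 10 nM, 0.42, 0.41 and 0.34 at 100 nM and 0.77, 0.45 and 0.01 at 1 µM (mean 0.39, SE 0.078, adjusted p = 0.000677). All were above 0, though 2 arrays were within 0.05 of it, and in control cells alone the ratio missed the threshold (0.36, SE 0.16, adjusted p = 0.0754). The Slc16a1 ratio in control cells passed without control replicate 1 (0.53, adjusted p = 0.0423) and without 1 µM replicate 3 (0.36, adjusted p = 0.0493), but was 0.18 without control replicate 2 (adjusted p = 0.448).

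Ldha, the lactate dehydrogenase subunit that predominates in glycolytic tissue, was lower, with values between -1.26 and -0.67 and a mean of -0.92 (SE 0.050). Ldhb, the subunit that predominates in heart, was higher. Its values were 0.99, 0.35 and 0.35 in control cells, 0.35, 0.62 and 0.22 at 10 nM, 0.70, 0.34 and 0.90 at 100 nM and 0.09, 0.39 and 0.45 at 1 µM (mean 0.48, SE 0.076, adjusted p = 0.000122). The array of control replicate 1 held the highest Ldhb value of all 12, and without that array the call in control cells was lost (0.35, adjusted p = 0.106, against 0.57 and 0.0101 with it). Pdk1, which encodes a kinase that keeps pyruvate out of the mitochondrial acetyl-CoA pool and is a classical HIF-1 target, averaged -1.62 (SE 0.072) and ranged from -2.05 to -1.24.

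Among the oxygen sensors, Hif1a stood furthest above the reference of all 35 genes. Its log2 ratios were 1.64, 1.61 and 1.06 in control cells, 1.75, 1.44 and 1.48 at 10 nM, 1.78, 1.17 and 1.48 at 100 nM and 1.82, 1.42 and 1.02 at 1 µM (mean 1.47, SE 0.085, a 2.77-fold higher ratio, adjusted p = 3.16e-08). Every array was above 1, and the 4 groups overlapped. This value rests on 1 probe, because the other Hif1a probe had no value on any array.

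Epas1, which encodes HIF-2α, was the 1 gene of the 35 that was not called on the mean of all 12 arrays (-0.28, SE 0.14, adjusted p = 0.0937). It was below 0 on 7 arrays and above it on 4, with 1 value missing. The HIF prolyl hydroxylase genes Egln1 (mean -0.97, SE 0.056) and Egln3 (mean -1.71, SE 0.13), of which Egln3 is the more strongly hypoxia-induced, were both lower on every array.

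The secreted HIF targets were among the lowest. Adm encodes adrenomedullin, a vasodilator peptide. Its values were -1.84, -1.95 and -1.98 in control cells, -2.53, -2.09 and -1.68 at 10 nM, -2.66, -1.87 and -2.44 at 100 nM and -2.81, -2.05 and -2.003 at 1 µM (mean -2.16, SE 0.098, 4.46-fold lower, adjusted p = 5.58e-09). Vegfa encodes the main angiogenic growth factor, and its values were -2.19, -2.06 and -2.12 in control cells, -2.22, -1.20 and -0.83 at 10 nM, -2.07, -2.22 and -1.75 at 100 nM and -1.27, -1.49 and -1.88 at 1 µM (mean -1.78, SE 0.11, 3.43-fold lower, adjusted p = 4.11e-08). Control cells were tight for both genes, and the Shld1 arrays were more spread.

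Ndrg1, a gene induced by hypoxia and by differentiation, was the lowest of the 35. Its values were -3.63, -3.84 and -3.07 in control cells, -2.90, -3.20 and -3.04 at 10 nM, -3.16, -3.34 and -3.31 at 100 nM and -3.61, -3.52 and -2.83 at 1 µM (mean -3.29, SE 0.083, 9.77-fold lower, adjusted p = 9.77e-11). Both of its probes gave this result, at -3.45 and -3.12.

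The remaining HIF targets were called lower without exception. The carbonic anhydrase genes Car9 and Car12 averaged -1.44 (SE 0.099) and -1.38 (SE 0.11). Ddit4, which encodes the mTORC1 inhibitor REDD1, averaged -1.12 (SE 0.13). Of the collagen prolyl hydroxylase subunits, P4ha1 averaged -1.40 (SE 0.11) and P4ha2 only -0.30 (SE 0.057). The mitophagy receptors Bnip3l and Bnip3 averaged -1.05 (SE 0.11) and -0.49 (SE 0.092).

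Other genes of the same pathways lay much nearer the reference as a group, though their counts leaned the same way. Of 51 further genes of glucose metabolism, pyruvate handling and the HIF system, 41 could be tested. This list was also chosen with earlier results of these data known. On the mean of all 12 arrays 14 of the 41 were called higher and 18 lower, with a median of -0.08. Over all genes tested, 38.6% were called higher and 34.4% lower, with a median of 0.03. Of the 41, 11 were below 0 on all 12 arrays and 6 above it, beside 16.8% and 22.9% of all genes. The genes with the smallest p on the higher side were Slc2a4 (0.98, SE 0.052), the insulin-responsive glucose transporter, Egln2 (0.77, SE 0.047), a HIF prolyl hydroxylase not known as a hypoxia-induced gene, and Vhl (0.87, SE 0.055). On the lower side they were Ero1a (-2.29, SE 0.096), an oxidase of the endoplasmic reticulum, Mxi1 (-2.80, SE 0.14), an antagonist of MYC, and Gys1 (-0.67, SE 0.055), glycogen synthase, of which Ero1a and Mxi1 are known HIF-1 targets.

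In some families, the genes lay on different sides of the reference. In others, such as the hexokinases Hk1 and Hk2 and the enolases Eno2 and Eno3, all genes measured lay below 0 on all 12 arrays. The families named here were picked after the values were seen, and the values are a description. Among the glucose transporters Slc2a1 averaged -1.54 and Slc2a4 0.98, with Slc2a3 at 0.07. Among the kinases of pyruvate dehydrogenase, Pdk1 averaged -1.62 and Pdk4, the fasting-induced form, 2.31, with array values of 1.14 to 3.85, while Pdk2 and Pdk3 averaged -0.38 and 0.09. Among the hydroxylases Egln1 and Egln3 were below 0 on all 12 arrays, whereas Egln2 was above 0 on all 12, with values of 0.55 to 1.10. Arnt, which encodes the partner of both HIF subunits, averaged -0.41.

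**Figure D2:**
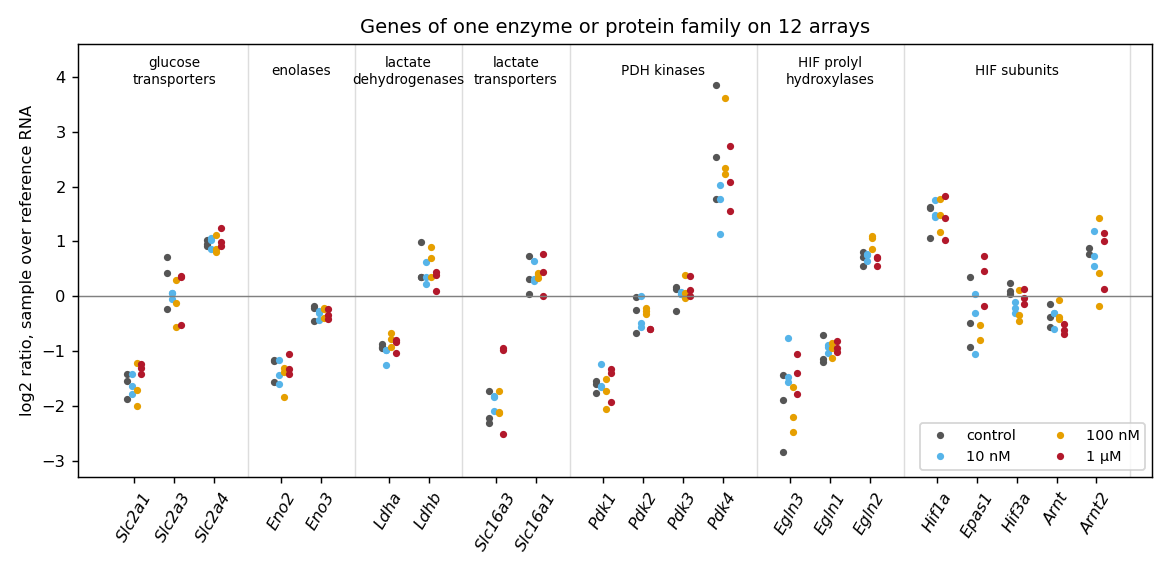
Log2 ratio of 3T3 sample over reference RNA (vertical axis) for genes of the same family, 1 point per array, coloured by Shld1 dose. Slc2a1, Eno2, Eno3, Ldha, Slc16a3, Pdk1, Egln1, Egln3 and Arnt lie below 0 on all 12 arrays. Slc2a4, Ldhb, Slc16a1, Pdk4, Egln2 and Hif1a lie above 0 on all 12.

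Ratios above 0 were common for fibroblast genes on the same arrays, so the position of the hypoxia genes was not that of every gene group. Of 14 fibroblast markers tested, 12 were called higher and 1 lower, with a median of 1.22, and of 6 leukocyte markers 5 were called lower, with a median of -1.41. Both lists had also been used to choose the ratio's direction. On single arrays the fibroblast median ran from 1.10 to 1.56 and the leukocyte median from -1.95 to -0.83. The sources used here do not give the makeup of the reference RNA, and its part in these ratios was not tested.

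None of these genes passed the test for a change with Shld1. At 10 nM, 100 nM and 1 µM against control, 0 of the 35 genes passed an adjusted p of 0.05 with limma, where 0% of the 14523 genes passed at any of the 3 doses. The count was also 0 for the mean of the 3 doses against control, for a linear trend over dose rank, for 1 µM against 100 nM, for 100 nM against 10 nM and for an F test over the doses, again with 0% of all genes called in each. At an unadjusted p under 0.05 there were 2 of these genes at 10 nM (Vegfa and Egln3, 360 of all genes), 1 at 100 nM (Car9, 438 of all genes) and 0 at 1 µM (618 of all genes). Unadjusted counts were also 0 for the mean of the doses and for the trend, and 1 for the F test (Car9, 422 of all genes). Between doses they were 2 for 100 nM against 10 nM (Car9 and Egln3, 532 of all genes) and 3 for 1 µM against 100 nM (Car9, Epas1 and Pkm, 698 of all genes).

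The medians of the 35 differences were close to 0, at 0.05 for 10 nM, 0.00 for 100 nM and 0.05 for 1 µM, each minus control, where the medians over all genes were -0.01, 0.02 and -0.02. The 3 doses share the same control arrays. With 1 array left out in turn, the median ran from -0.00017 (without 10 nM replicate 3) to 0.096 (without control replicate 3) at 10 nM. It ran from -0.037 (without control replicate 1) to 0.10 at 100 nM and from 0.024 (without control replicate 1) to 0.14 at 1 µM, both highest without control replicate 3. The 95% interval of the difference lay within a 2-fold change in either direction for 30 of the 35 genes at 10 nM, 32 at 100 nM and 29 at 1 µM, and the median interval reached 0.51 on the log2 scale to each side. The labels do not say whether replicates came from separate cultures, so the p-values measure only the spread between these samples.

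**Figure D3:**
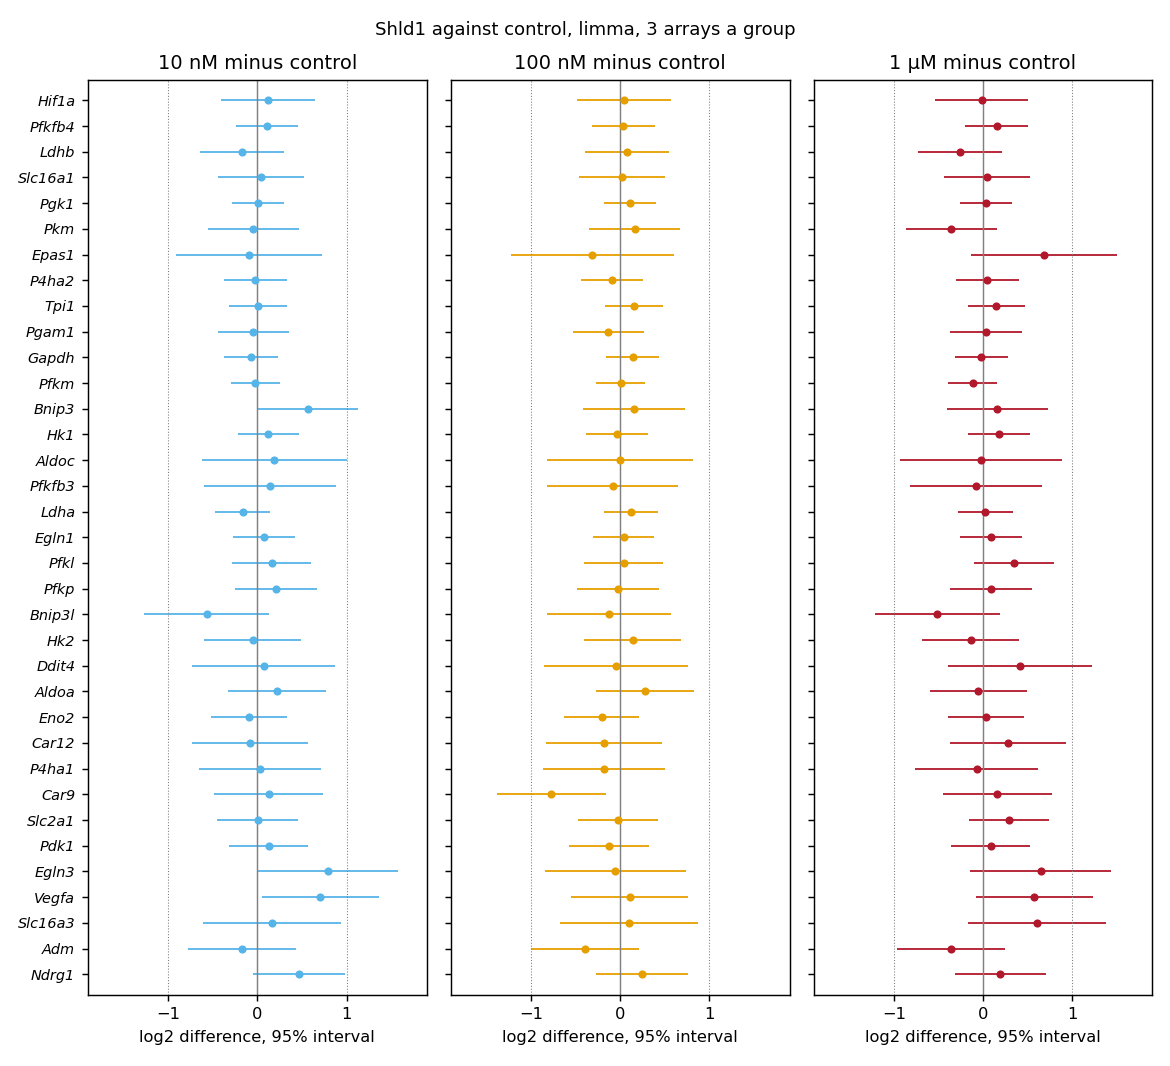
Log2 difference of each Shld1 dose minus control (horizontal axis) with its 95% interval from limma, 3 arrays a group, for the 35 genes in the order of their mean ratio. Dotted lines mark 2-fold. Most intervals cross 0, and the exceptions are Car9 at 100 nM and Vegfa and Egln3 at 10 nM, of which none passed after adjustment.

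The smallest unadjusted p of any of these genes, at a dose against control and in the F test, was that of Car9, which is widely used as a marker of hypoxia. Its log2 ratios were -1.75, -1.47 and -0.75 in control cells, -1.42, -1.19 and -0.98 at 10 nM, -1.94, -2.52 and -1.82 at 100 nM and -1.13, -1.52 and -0.85 at 1 µM. The 3 arrays at 100 nM were below all 9 others. The difference was -0.77 (SE 0.28, adjusted p = 1.00) for 100 nM against control, -0.90 (SE 0.28, adjusted p = 1.00) for 100 nM against 10 nM and 0.93 (SE 0.28, adjusted p = 0.973) for 1 µM against 100 nM. The dip came from 1 of the gene's 2 probes. That probe differed by -1.49 at 100 nM against control and reached -4.59 on 100 nM replicate 2, whereas the other differed by -0.05. Without control replicate 3 the Car9 difference at 100 nM was -0.48.

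Vegfa, whose array values are given above, differed by 0.70 (SE 0.30) at 10 nM, by 0.11 at 100 nM and by 0.58 (SE 0.30) at 1 µM, each minus control (adjusted p of 1.00 or 0.999). Its difference at 10 nM was 0.41 without 10 nM replicate 3 and 1.11 without 10 nM replicate 1. Its 3 arrays at 1 µM were above all 3 control arrays, while 1 of the arrays at 10 nM lay below them. Egln3 had values of -2.84, -1.89 and -1.43 in control cells, -1.47, -1.56 and -0.76 at 10 nM, -2.47, -2.20 and -1.65 at 100 nM and -1.78, -1.05 and -1.39 at 1 µM. The control arrays of Egln3 were the most spread of the 4 groups and overlapped with every dose. Its differences from control were 0.79 (SE 0.36) at 10 nM, -0.05 at 100 nM and 0.65 (SE 0.36) at 1 µM. Without control replicate 1, the lowest of its control arrays, they were 0.40 at 10 nM and 0.25 at 1 µM.

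Epas1 had -0.92, 0.36 and -0.48 in control cells, -1.06, 0.04 and -0.30 at 10 nM, -0.80 and -0.52 at 100 nM, where the third array had no value, and 0.46, 0.74 and -0.18 at 1 µM. The 1 µM arrays lay above both 100 nM arrays and overlapped with control. The difference was 0.69 (SE 0.37) for 1 µM against control and 1.00 (SE 0.41, adjusted p = 0.973) for 1 µM against 100 nM. Leaving out control replicate 1 gave an Epas1 difference of 0.40 at 1 µM, and leaving out control replicate 2 gave 1.04. Bnip3 had -1.19, -0.56 and -0.38 in control cells, -0.03, -0.25 and -0.16 at 10 nM, -0.94, -0.45 and -0.28 at 100 nM and -0.92, -0.12 and -0.61 at 1 µM. All 3 arrays at 10 nM were above control for Bnip3 (0.56, SE 0.26, and 0.32 without control replicate 1), and the other doses overlapped with control. Its relative Bnip3l had -1.24, -0.67 and -0.33 in control cells, -1.02, -1.30 and -1.62 at 10 nM, -1.25, -0.37 and -0.99 at 100 nM and -1.55, -1.56 and -0.66 at 1 µM. Its differences from control were -0.57 (SE 0.32) at 10 nM and -0.51 (SE 0.32) at 1 µM, with arrays that overlapped with control at both doses, and without control replicate 3 they were -0.36 and -0.30.

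**Figure D4:**
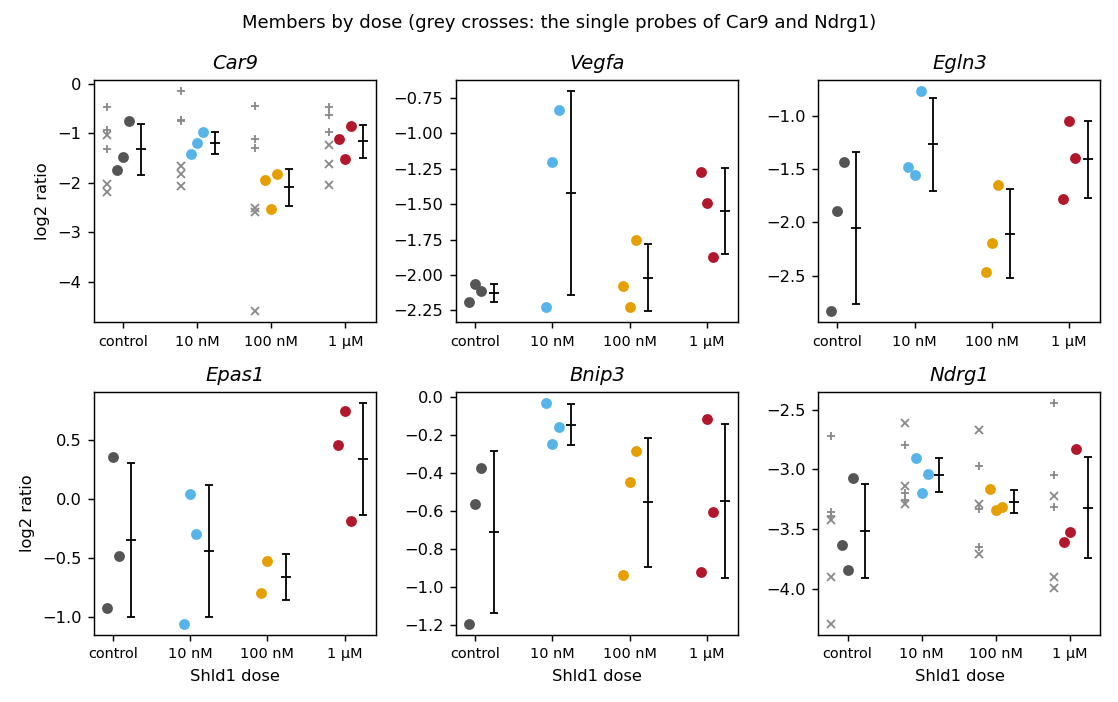
Log2 ratio of 3T3 sample over reference RNA (vertical axis) by Shld1 dose for Car9, Vegfa, Egln3, Epas1, Bnip3 and Ndrg1, with 1 filled point per array and the mean and SD of each group beside them. Grey crosses are the single probes of Car9 and Ndrg1, and 1 Car9 probe reaches -4.59 at 100 nM.

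Among the 21 glycolysis and lactate genes, no difference from control was larger than 0.60 on the log2 scale at any dose. That value was Slc16a3 at 1 µM (SE 0.35), where 2 arrays lay near -1, and it was 0.34 without 1 µM replicate 1 and 1.12 without 1 µM replicate 2. Pkm differed by -0.36 at 1 µM against control, where its values were -0.83, -0.33 and -0.43 at 1 µM against -0.0025, -0.0035 and -0.52 in control cells, and by -0.52 (SE 0.23) for 1 µM against 100 nM, at which it had -0.32, 0.07 and 0.22. The 10 nM arrays of Pkm, at 0.07, -0.11 and -0.62, overlapped with control, and the 1 µM arrays lay below all 3 arrays at 100 nM. The Pkm difference from control at 1 µM came from 1 of its 2 probes (-0.70, against -0.0083 for the other) and was -0.20 without 1 µM replicate 1. Ldha was at -0.98, -1.26 and -0.99 at 10 nM, below all control arrays at -0.88, -0.93 and -0.94, a difference of only -0.16 (SE 0.14), and at -0.93, -0.67 and -0.78 at 100 nM and -0.84, -0.79 and -1.04 at 1 µM. Ldhb differed by -0.17 at 10 nM and by -0.26 at 1 µM, with overlapping arrays, and by -0.045 at 1 µM without control replicate 1. The Ldha difference was -0.073 without 10 nM replicate 2.

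At 100 nM the genes with the smallest p above control were Aldoa (0.28, SE 0.25), Tpi1 (0.16, SE 0.15), Ndrg1 (0.24, SE 0.23) and Gapdh (0.14, SE 0.14). Those below it, besides Car9, were Adm (-0.40, SE 0.28), Eno2 (-0.21, SE 0.19) and Epas1 (-0.31). All of these overlapped with control. The 2 probes of Ndrg1 differed in sign at 100 nM, at 0.65 and -0.16. Without control replicate 2, the differences were 0.080 for Aldoa, 0.080 for Ndrg1 and 0.056 for Gapdh, and without 100 nM replicate 1 they were -0.23 for Adm and -0.046 for Eno2. Aldoa had -1.15, -0.80 and -1.002 at 100 nM and -0.97, -1.66 and -1.16 in control cells. Tpi1 had -0.38, -0.20 and -0.17 at 100 nM and -0.34, -0.40 and -0.48 in control cells. Gapdh had -0.32, -0.38 and -0.10 at 100 nM and -0.29, -0.57 and -0.36 in control cells. In each of these 3 genes at least 1 array at 100 nM lay within the range of control. Eno2 had -1.84, -1.31 and -1.39 at 100 nM and -1.57, -1.18 and -1.16 in control cells, with 1 array at 100 nM below all of control. Ndrg1 was at 0.47 (SE 0.23) at 10 nM minus control, also with overlap, and Adm was at -0.18 at 10 nM, where its arrays overlapped with control, and at -0.36 (SE 0.28) at 1 µM, where all 3 lay below control and where it was -0.10 without 1 µM replicate 1. Without control replicate 2 the Ndrg1 difference at 10 nM was 0.30.

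Counted over all 35, the arrays of the dose and of control did not overlap for 2 genes at 10 nM (Bnip3 above, Ldha below), which is 5.71% of them, beside 7.14% of all genes. They did not overlap for 1 gene at 100 nM (Car9 below, 2.86%, beside 8.24%) and for 4 at 1 µM (Vegfa, Slc2a1 and Tpi1 above, Adm below, 11.4%, beside 8.48%). Between doses, 5 genes did not overlap for 100 nM against 10 nM (Ldha and Gapdh above, Car9, Egln3 and Bnip3 below, 14.3%, beside 11.7%) and 4 for 1 µM against 100 nM (Car9 and Epas1 above, Pkm and Pfkm below, 11.4%, beside 11.2%). Of the 5 comparisons, 4 gave shares within 3 percentage points of that of all genes, and at 100 nM against control the share was lower.

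Taken by array, the 14 genes of oxygen sensing and HIF targets had medians of -1.52, -1.23 and -0.75 in control cells, -1.39, -1.25 and -0.80 at 10 nM, -1.65, -1.08 and -1.53 at 100 nM and -1.15, -1.06 and -0.85 at 1 µM. The group means were -1.17 ± 0.38 for control, -1.15 ± 0.31 at 10 nM, -1.42 ± 0.30 at 100 nM and -1.02 ± 0.15 at 1 µM (SD, n = 3 each), and the groups overlapped. Replicate 1 had the lowest of the 3 medians in each of the 4 groups. For 100 nM against 10 nM, 13 of these 14 genes lay below 0, with a median difference of -0.22. All genes had a median of 0.03, and 6606 of 14523 lay below 0. Among the dose comparisons this was the most one-sided for these genes. Against control, 5 of the 14 lay below 0 at 10 nM, 9 at 100 nM and 4 at 1 µM. For 1 µM against 100 nM, 3 did. Genes measured on the same arrays are not separate observations of a dose. For 100 nM against 10 nM, all 6 leukocyte markers lay below 0 (median -0.26). So did 5 of 6 epithelial markers (median -0.10) and 5 of 14 fibroblast markers (median 0.14). Without 100 nM replicate 2, the median over all 35 genes in that comparison was -0.16, against -0.09 with every array. It was -0.0035 without 100 nM replicate 1 and -0.004 without 10 nM replicate 3. With quantile normalization it turned to 0.037, where all genes also had 0.037. The count over the 14 genes was not recomputed under these settings. The array medians of the 21 glycolysis and lactate genes lay between -0.92 and -0.52.

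**Figure D5:**
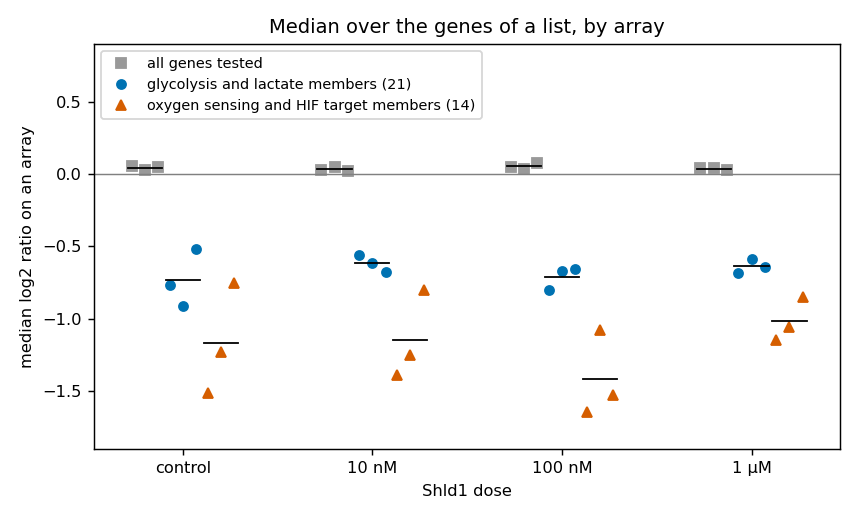
Median log2 ratio over a gene list on each array (vertical axis) by Shld1 dose, for all genes tested, the 21 glycolysis and lactate genes and the 14 genes of oxygen sensing and HIF targets, with bars at the group means. The hypoxia median runs from -1.52 to -0.75 within the control arrays, and the 4 groups overlap.

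The array of control replicate 3 differed from the other control arrays. It had the highest value of the 3 control arrays for 20 of the 35 genes, and the narrowest spread of ratios of all 12 arrays, with a median absolute deviation of 0.59 where the others had 0.61 to 0.75. Its leukocyte median was -0.87, against -1.95 and -1.66 on the other control arrays. With arrays scaled to equal spread, its median over the 35 genes was -0.87, against -1.06 and -0.996 on control replicates 1 and 2. Over the genes of oxygen sensing and HIF targets it was -0.87 after scaling, against -1.41 and -1.22. At 10 nM, replicate 3 was likewise most often the highest of its group, for 19 of the 35 genes. At 100 nM and 1 µM, replicate 3 was highest for 14 and 12 of 34 genes, and replicate 2 for 15 and 13. Without control replicate 3, the median difference of the 35 genes was 0.10 at 10 nM, 0.10 at 100 nM and 0.14 at 1 µM, each minus control, with 0 genes called. Leukocyte markers had a median difference from control of 0.39 at 10 nM (5 of 6 above 0), -0.022 at 100 nM (2 of 6) and 0.31 at 1 µM (6 of 6). Epithelial markers had 0.23 (4 of 6 above 0), -0.086 (3 of 6) and 0.23 (5 of 6) at the same doses, and fibroblast markers -0.081 (3 of 14), 0.028 (8 of 14) and -0.25 (3 of 14), with 0 markers of these lists called. The leukocyte array medians ran from -1.95 to -0.87 in control cells, -1.38 to -0.83 at 10 nM, -1.82 to -1.02 at 100 nM and -0.97 to -0.90 at 1 µM. The part of these arrays or markers in the small differences of the hypoxia genes was not tested.

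The other genes of the pathways gave 0 calls at each dose as well. Over the 41 tested, the median difference was 0.01 at 10 nM, 0.03 at 100 nM and 0.03 at 1 µM, each minus control. The residual SD, the spread between arrays of a group, had a median of 0.302 over the 35 genes against 0.265 over all genes tested, so these genes were measured with somewhat more spread than most.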

How the data were processed

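Total RNA of 12 samples was hybridised on 2-colour oligonucleotide arrays, sample in Cy5 and reference RNA in Cy3, per the labels' protocols. The deposited values were used as the authors gave them: 1 value per probe and array, read as log2 ratios, with the authors' background correction and normalization not given in the sources used here. Spot intensities were not used, so the signal over background is unknown. Blank values made up 13.33 to 20.98% of an array, deposited array medians were -0.203 to -0.095, and 2 arrays correlated at r = 0.656 to 0.846.

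Each array was centred on the median of its probes. Probes of a gene that had a value on all 12 arrays were averaged, and with none the probe with most values was taken. Genes with at least 2 values in each group were tested with limma 3.58.1 (R 4.3.3), lmFit and eBayes on group means over all 12 arrays, with Benjamini-Hochberg adjustment over 14523 genes at 0.05. Of 38784 probes, 26173 had 1 gene symbol in the platform annotation, 28 several and 12583 none. The steps were tested on simulated data. Members and lists were chosen with earlier results of these data known. All 35 measured members may be named. Values of every array are written out for the 4 highest and 4 lowest against the reference and for those with the smallest p at a dose, and are plotted for the rest. The number of arrays limits the precision. Figures were drawn with matplotlib 3.10.9.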

Additional observations from a re-analysis of the deposited data

How the results depend on the processing

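Of 1832 values recomputed for 77 results under other settings, 1823 kept their direction and side of the threshold, stayed within 1.5 times (counts) or moved by less than the SD of 0.161 between arrays (medians). That SD was larger than the median of every dose comparison, so such a median could turn sign and still count as kept. For these medians the count is therefore no measure of stability. Quantile normalization turned them to 0.037 for 100 nM against 10 nM and -0.0022 for 1 µM against 100 nM. It gave -0.0050 for 10 nM against control. For 100 nM against control, array weights gave -0.026. That median was also -0.037 without control replicate 1 and -0.0063 without 100 nM replicate 2. For 10 nM against control it was -0.00017 without 10 nM replicate 3. The settings were other centrings and scalings, other rules for probes and missing values, robust or weighted fits, the compared groups alone, and each array left out in turn. A fit of only the compared groups was not run for the mean of the doses, the trend, the F test and the mean of 12 arrays, because all 4 groups enter them. Over the mean of 12 arrays, 7 genes had a probe called higher in a probe-level fit, against 4 with 1 value per gene. Gapdh, Pfkp and Pgk1 also have probes with means above 0. Leaving out 1 array gave 29 to 31 genes called lower on that mean and 22 to 28 in control cells, with 0 called at any dose. Small dose differences turned sign when 1 array was left out, and the cause was not tested: Epas1 at 100 nM ranged from -0.60 to 0.042 (the highest without control replicate 2), Ldhb at 10 nM from -0.28 to 0.044 (the highest without control replicate 1) and Adm at 10 nM from -0.39 to 0.039 (the highest without 10 nM replicate 1). In control cells Slc16a1 passed with array weights (adjusted p = 0.0342) and Ldhb did not without centring (0.0522). Arrays of the same number deviated together in part, with r of -0.107 to 0.278 over 18 pairs and 10 of 18 over 0.1. Arrays of different numbers in different groups had r of -0.336 to 0.204. By this measure 8 of 12 arrays were closest to their own number, and the titles number the arrays in runs that share a replicate number. The main fit did not treat them as pairs, so an effect shared by a replicate number stays in its spread. With a replicate block, 0 genes were called at any dose, and 31 were lower on the mean of 12 arrays and 28 in control cells. With 3 arrays a group, the median interval of a dose difference was 0.51 to each side.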
